A study of Mus musculus with 18 samples.

Results

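The voltage-gated calcium, potassium and sodium channel genes of a mouse brain array were followed in 3 brain regions of mice lacking Aldh5a1 and of wild-type mice. A probe set is the group of short oligonucleotides on the array that reads 1 transcript. Members were all probe sets whose single annotated gene symbol begins with Kcn, Cacn, Hcn or Scn. The rule found 76 probe sets for 63 genes, among the 12488 probe sets of the array and the 8252 genes that its annotation names singly. By symbol alone it also takes channels that are not opened by voltage, such as the inward rectifier and two-pore potassium channels, and 1 gene, Scnm1, that encodes a factor of RNA splicing and no channel subunit.

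Hippocampus, cerebellum and cortex were taken from 3 mice homozygous for the Aldh5a1 null allele (Aldh5a1-/-, here KO, numbered 3363, 3389 and 3403) and from 3 wild-type mice (Wt in the labels, here WT, numbered 3405, 3406 and 3396). Total RNA of each region of each mouse was read on 1 Affymetrix array, giving 18 arrays in 6 groups of 3. The mitochondrial enzyme made from Aldh5a1, succinate semialdehyde dehydrogenase, completes the breakdown of the transmitter GABA, and mice without it develop seizures. Age, sex and strain of the mice are not given in the sources used here, and no treatment is named. The annotation assigns no probe set to Aldh5a1, so the genotype rests on the labels.

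Voltage-gated channels open when the membrane is depolarised. Sodium channels carry the rise of the action potential, Kv potassium channels end it and set firing rate, and calcium channels turn it into calcium entry and transmitter release. HCN channels open on hyperpolarisation and help to pace rhythmic firing, while inward rectifier and two-pore potassium channels set the resting potential. Each pore is built by an alpha subunit, and accessory subunits change its trafficking and gating.

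Signal is the deposited scaled intensity. All 18 arrays were scaled to a 2% trimmed mean of 150.1, and their median signal lay between 53.5 and 64.8. Signal under 9.46, the 20th percentile of all values, was treated as a floor. The regions matched their markers: the summed signal of 9 probe sets of cerebellar neurons was 16630 to 17950 on the cerebellar arrays and 879 to 1149 on the others, while that of 6 probe sets of forebrain excitatory neurons was 24.1 to 60.9 in cerebellum and 2362 to 3569 elsewhere. These are bulk samples, in which fewer cells of a type and less RNA per cell cannot be told apart.

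Of the 76 channel probe sets, 46, for 40 genes, exceeded the 40th percentile of an array on 3 or more of the 18 and were tested, among 8382 probe sets kept in all. Because a probe set could be kept through 1 group alone, the 46 do not stand for the whole set. Of the 46, 41 were above the floor on every array. The 30 others left 23 genes without a tested probe set, among them the R-type and T-type calcium channels Cacna1e and Cacna1h and the Kv channel Kcna4. Of these 30, 8 were under the floor on all 18 arrays, and the highest signal any of the 30 reached was 60.5, for Cacna1h. Signals of different probe sets are not compared, since oligonucleotides bind with different strength. In the identifiers, s and f mark probe sets that can bind more than 1 transcript, and r marks those that break a design rule of the maker.

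In WT mice the channels differed between regions. The moderated F test of limma, with the mouse as a block, gave an adjusted p under 0.05 for 32 of 46 probe sets, against 46.5% of all probe sets tested. Among the 32, signal was highest in cortex for 17 (53.1%, against 36.5% of all probe sets that passed), in cerebellum for 9 (28.1%, against 39.2%) and in hippocampus for 6 (18.8%, against 24.4%). By pairs, 10 channel probe sets were higher in cerebellum than in cortex (19.1% of all) and 20 were lower (24.1% of all). Cerebellum against hippocampus gave 8 higher (14.7% of all) and 13 lower (16.4% of all). Hippocampus against cortex gave 6 higher (7.46% of all) and 8 lower (6.86% of all). Single mice set some of these counts: without mouse 3406 6 were higher in cerebellum than in cortex and 4 were lower in hippocampus than in cortex, and without mouse 3396 the latter count was 3. Hippocampus against cortex gave 3 higher without mouse 3405 and likewise without 3396. 

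**Figure D1:**
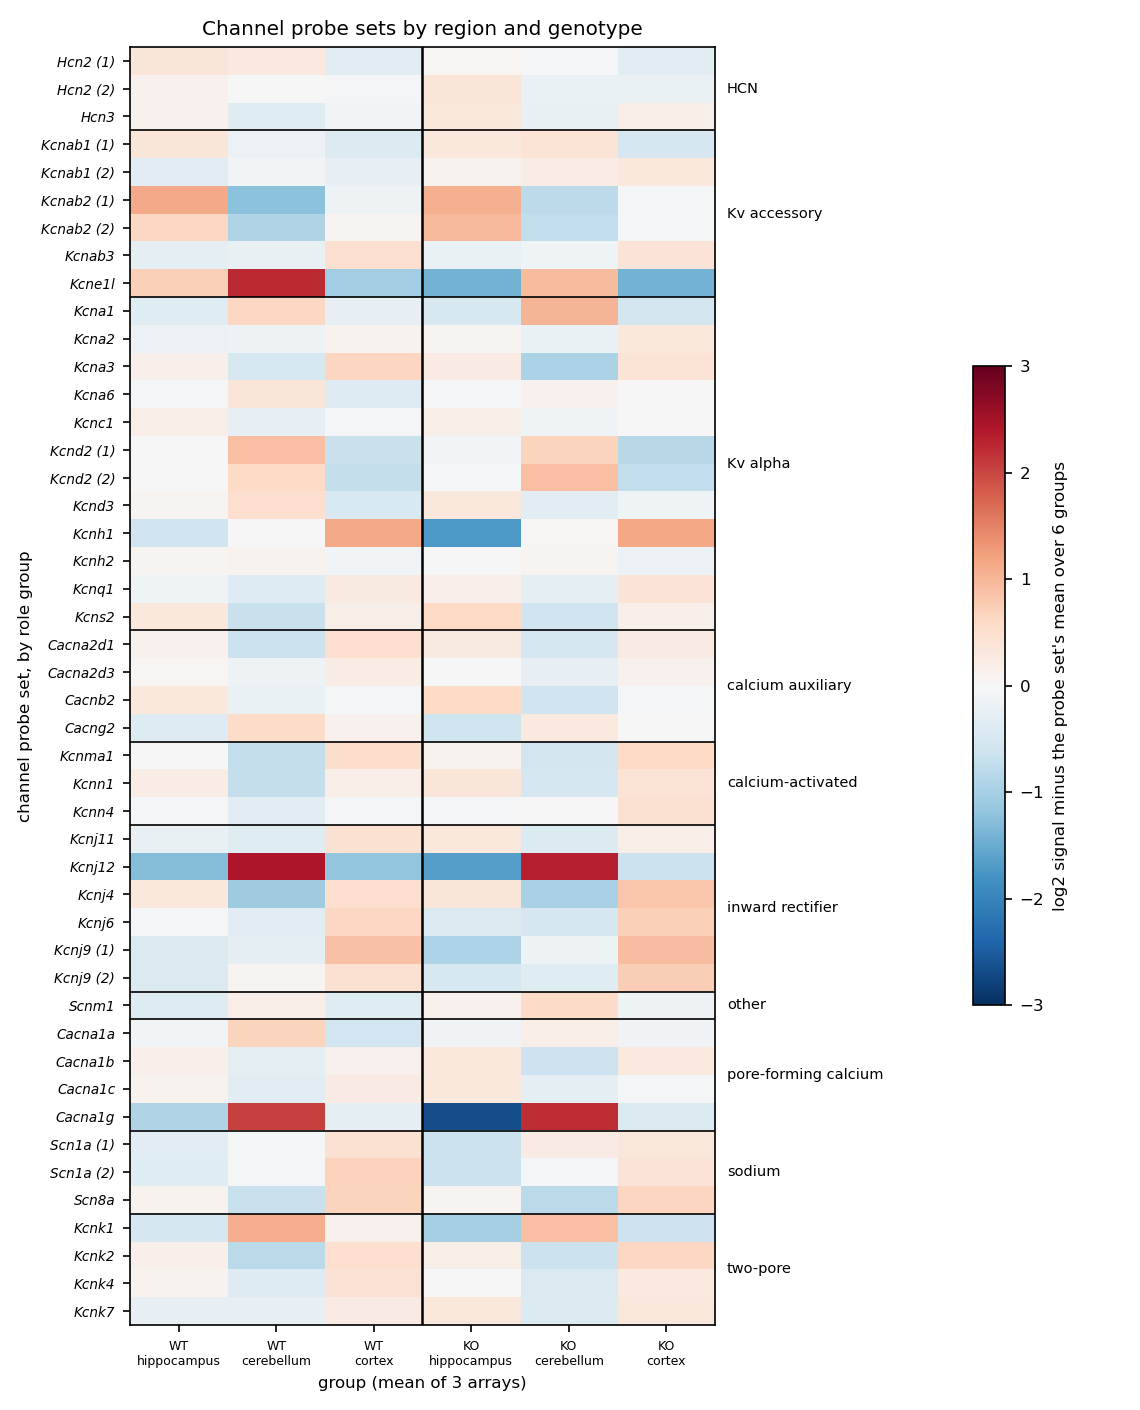
Mean log2 signal of the 46 kept channel probe sets (rows, by role group) in the 6 groups of 3 arrays (columns), as the difference from the probe set's mean over the groups; red is higher, blue is lower, and (1) and (2) mark the 2 probe sets of a gene. The red cerebellar cells of Kcnj12 and Cacna1g stand out in both genotypes and that of Kcne1l in WT, and the darkest blue cell is Cacna1g in KO hippocampus.

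Among the pore-forming calcium channels, 3 of 4 kept probe sets passed the WT region test (46.5% of all). Cacna1g (104460_at), the T-type channel CaV3.1 that opens near rest and supports burst firing, read 432, 284 and 292 in the cerebellum of WT mice 3405, 3406 and 3396. It read 57.2, 38.8 and 33.2 in hippocampus and 50.2, 88.4 and 64.1 in cortex. All cerebellar arrays were thus above all others, by 2.97 ± 0.24 (limma SE) on the log2 scale over hippocampus and 2.33 ± 0.24 over cortex (adjusted p = 3.07e-07 and 3.55e-06). Cacna1c, the L-type channel CaV1.2, was lower in cerebellum (120, 163 and 123) than in cortex (212, 208 and 183), by a log2 difference of -0.58 ± 0.15 (adjusted p = 0.0065). The F test of Cacna1c was lost without mouse 3405 or 3396 (adjusted p = 0.0712 and 0.0686) and with median scaling (0.0759). Cacna1a, the P/Q-type channel of Purkinje cells and of many nerve terminals, read 121, 295 and 157 in cerebellum and 127, 140 and 24.4 in cortex, groups that overlapped. Its F test passed at an adjusted p of 0.0458 and was lost without mouse 3389, 3403, 3406 or 3396 (adjusted p = 0.0675, 0.0542, 0.137 and 0.348), without the filter (0.167), without the intensity trend (0.0860) and without the block (0.124). The N-type channel Cacna1b did not pass (adjusted p = 0.0758).

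The calcium channel auxiliary genes were Cacna2d1 and Cacna2d3, whose alpha2delta proteins carry channels to the membrane, the beta subunit Cacnb2, and Cacng2. Cacng2 encodes stargazin, named as a gamma subunit but best known for trafficking AMPA receptors. Cacng2 had its highest mean in cerebellum, at 387, 408 and 268 against 197, 182 and 166 in hippocampus, with a log2 difference of 0.94 ± 0.13 (adjusted p = 6.35e-05). Its lowest cerebellar array thus exceeded its highest hippocampal one. In cortex Cacng2 read 293, 248 and 235, which overlapped with cerebellum. Cacna2d1 ran the other way, at 83.3, 89.3 and 48.6 in cerebellum against 144, 242 and 112 in cortex, a log2 difference of -1.15 ± 0.16 (adjusted p = 5.34e-05). Cacna2d3 spanned a narrower range, 318 to 374 in cerebellum and 447 to 472 in cortex, and its F test (adjusted p = 0.0118) was lost without mouse 3406 or 3396 (0.0516 and 0.0798) and with median scaling (0.261). Cacnb2 did not pass the F test (adjusted p = 0.0625), though it did without mouse 3406 (0.0294).

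All 3 kept sodium channel probe sets passed the WT region test (46.5% of all) and were highest in cortex (36.5% of all that passed). Scn1a, the NaV1.1 alpha subunit of fast-spiking interneurons, was read by a pair of probe sets. Probe set 94201_at gave 367, 456 and 349 in cortex against 241, 180 and 146 in hippocampus, and hippocampus minus cortex was -1.07 ± 0.16 (adjusted p = 0.00056). For 162255_s_at the same log2 difference was -0.79 ± 0.16 (adjusted p = 0.00433), so both had the lowest mean of Scn1a in hippocampus. For both, hippocampal arrays overlapped with cerebellar ones, which read 185 to 322 for 94201_at. Scn8a, the NaV1.6 alpha subunit of axon initial segments and nodes, was lowest in cerebellum instead, at 160, 218 and 89.3 against 392, 391 and 330 in cortex. Cerebellum minus cortex was -1.34 ± 0.20 for Scn8a (104504_at) on the log2 scale (adjusted p = 8.42e-05), with no overlap of the arrays. The other probe set of Scn8a, 104505_at, was under the floor on all 18 arrays and was not tested.

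The Kv alpha subunits fell into more than 1 pattern, and 7 of 12 kept probe sets passed the WT region test (46.5% of all). Kcnd2, the A-type channel KV4.2, was highest in cerebellum by both of its probe sets. Probe set 99339_r_at read 793, 563 and 463 in cerebellum, 426, 323 and 435 in hippocampus and 186, 290 and 244 in cortex, and cerebellum minus cortex was 1.32 ± 0.22 (adjusted p = 0.000229). The other probe set of Kcnd2 (98364_at) gave 1.58 ± 0.28 for that difference (adjusted p = 0.00041). Kcna1, the KV1.1 channel of axons, read 680, 435 and 426 in cerebellum and 184 to 431 in cortex. Its cerebellar arrays were above its hippocampal ones (216 to 330), with a log2 difference of 0.96 ± 0.22 (adjusted p = 0.00407), but its F test was lost without mouse 3405 (adjusted p = 0.0796). Kcns2, which forms no channel alone and modifies other Kv channels, was lowest in cerebellum, at 40.4, 42.0 and 43.4 against 80.3, 85.8 and 83.6 in hippocampus (log2 difference -0.99 ± 0.17, adjusted p = 0.000466). Kcnh1 (98380_at), an ether-a-go-go channel, was highest in cortex (92.5, 78.2 and 57.2), and hippocampus minus cortex was -1.72 ± 0.28 (adjusted p = 0.00108).

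Of the Kv accessory probe sets, 5 of 6 passed (46.5% of all). Kcnab2, a beta subunit of Kv1 channels with an aldo-keto reductase fold, was ordered hippocampus over cortex over cerebellum. Its first probe set (102892_at) read 492, 544 and 513 in hippocampus, 192, 218 and 225 in cortex and 85.5, 112 and 104 in cerebellum, so the 3 regions did not overlap. Cerebellum minus hippocampus was -2.37 ± 0.14 there (adjusted p = 8.92e-09) and -1.52 ± 0.13 on the second probe set, 162182_f_at (adjusted p = 5.26e-07). Kcne1l (100907_at), a single-pass subunit of the KCNE family whose gene lies on the X chromosome, was highest in cerebellum. It read 89.0, 140 and 136 in cerebellum and 44.3, 44.5 and 37.7 in hippocampus, while in cortex it was under the floor in mice 3405 and 3396 and at 21.1 in mouse 3406. All cerebellar arrays of Kcne1l were above all hippocampal ones (adjusted p = 0.00148). Kcnab3 was highest in cortex (91.0 to 109, against 54.4 to 67.8 in cerebellum, adjusted p of the F test = 0.00417). Among genes with a pair of kept probe sets, Kcnab1 was the one whose probe sets disagreed on the highest WT region: hippocampus for 102725_at (adjusted p = 0.00831, or 0.0823 without mouse 3405) and cerebellum for 162087_f_at (11.7 to 40.5 over WT arrays), which did not pass (adjusted p = 0.733).

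Of 6 kept inward rectifier probe sets, 5 passed the WT region test (46.5% of all). Kcnj12, the KIR2.2 subunit that sets the resting potential, read 245, 204 and 109 in WT cerebellum, 18.3, 11.3 and 11.4 in hippocampus, and 14.1, 22.6 and 9.38, the last just under the floor, in cortex. Cerebellum exceeded hippocampus by 3.72 ± 0.31 and cortex by 3.61 ± 0.31 on the log2 scale (adjusted p = 3.15e-07 and 4.08e-07). On every hippocampal and cortical array of both genotypes Kcnj12 lay under the 40th percentile. The filter thus kept it only through cerebellum, where it was high, and these p values are given as description. Kcnj4, the KIR2.3 subunit, showed the reverse: 51.4, 47.0 and 73.8 in cerebellum against 185, 145 and 173 in cortex, a log2 difference of -1.57 ± 0.17 (adjusted p = 4.89e-06). Kcnj9, a G-protein-gated subunit, was highest in cortex by both probe sets. For 98332_at it read 463 to 689 there and 250 to 380 in hippocampus (log2 difference -0.89 ± 0.23, adjusted p = 0.0171). The F test of Kcnj9 was lost for this probe set without mouse 3406 (adjusted p = 0.184) or the filter (0.0778), and for the other without mouse 3405 (0.309) or the filter (0.107). Kcnj11, the pore of ATP-sensitive potassium channels, was also highest in cortex (107 to 128), and its F test (adjusted p = 0.0139) was lost without mouse 3396 (0.156).

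Two-pore channels carry the background potassium current. Kcnk2, known as TREK-1, was lowest in cerebellum (142, 179 and 147, against 406, 410 and 340 in cortex), with a log2 difference of -1.31 ± 0.12 (adjusted p = 8.71e-07). Kcnk4, its relative TRAAK, followed the same order, with -0.81 ± 0.15 for cerebellum minus cortex (adjusted p = 0.000519). Kcnk1, known as TWIK-1, had its highest mean in cerebellum: 1193, 1604 and 1481 against 513, 478 and 415 in hippocampus, a log2 difference of 1.60 ± 0.26 (adjusted p = 0.000246). In cortex Kcnk1 read 513, 528 and 1368, which overlapped with cerebellum. Kcnk7 did not pass (adjusted p = 0.113), though it did without mouse 3396 (0.0460). Of the calcium-activated channels, Kcnma1, the large-conductance BK channel, read 501, 454 and 378 in cerebellum against 906, 1187 and 1061 in cortex (log2 difference -1.24 ± 0.14, adjusted p = 5.52e-06). Kcnn1, a small-conductance channel of the afterhyperpolarisation, was also lowest in cerebellum, at 83.4 to 97.5 against 163 to 182 in hippocampus (log2 difference -0.94 ± 0.14, adjusted p = 9.23e-05). Kcnn4 (adjusted p = 0.529) and Scnm1 (0.217) did not pass.

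HCN genes gave 1 call in 3 kept probe sets (46.5% of all). For Hcn2, 94194_s_at was lowest in cortex, at 161, 183 and 145 against 261, 235 and 304 in hippocampus (log2 difference of hippocampus minus cortex 0.71 ± 0.20, adjusted p = 0.0269). That call of the F test (adjusted p = 0.015) was lost without mouse 3405 or 3396 (0.0547 and 0.142) and without the filter (0.0627). The second probe set of Hcn2, 94195_r_at, did not pass (adjusted p = 0.442), and neither did Hcn3 (0.117, or 0.0442 without mouse 3406).

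To show what lies at the start of genes with opposite regional patterns, the 250 bases before the transcription start are printed for 6 genes, from RefSeq on GRCm38.p6, 5′ to 3′ along the gene. The RefSeq promoter table held 60 promoters for 47 of the 63 genes. Of the genes with 1 promoter there, the 3 of lowest F-test p with cerebellum highest were Kcnj12 (chr11:61065554-61065803, plus strand), Kcne1l (chrX:142306199-142306448, minus strand) and Cacng2 (chr15:78119281-78119530, minus strand). The 3 with cerebellum lowest were Kcnj4 (chr15:79505242-79505491, minus strand), Kcnma1 (chr14:24004206-24004455, minus strand) and Cacna2d1 (chr5:15934441-15934690, plus strand). Capitals mark GGGCGG, the GC box, on either strand (CCGCCC on the other), where neighbouring matches may overlap. TATAAA, the TATA box, was searched on both strands too.
Kcnj12: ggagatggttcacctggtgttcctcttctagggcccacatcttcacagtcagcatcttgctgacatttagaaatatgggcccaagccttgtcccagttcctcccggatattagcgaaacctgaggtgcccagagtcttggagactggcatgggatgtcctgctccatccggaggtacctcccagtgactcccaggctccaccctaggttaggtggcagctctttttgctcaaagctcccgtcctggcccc
Kcne1l: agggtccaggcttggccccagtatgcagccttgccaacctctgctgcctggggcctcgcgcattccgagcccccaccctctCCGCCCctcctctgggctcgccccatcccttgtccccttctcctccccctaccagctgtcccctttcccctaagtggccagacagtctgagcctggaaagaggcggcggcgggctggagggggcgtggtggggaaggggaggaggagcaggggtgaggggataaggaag
Cacng2: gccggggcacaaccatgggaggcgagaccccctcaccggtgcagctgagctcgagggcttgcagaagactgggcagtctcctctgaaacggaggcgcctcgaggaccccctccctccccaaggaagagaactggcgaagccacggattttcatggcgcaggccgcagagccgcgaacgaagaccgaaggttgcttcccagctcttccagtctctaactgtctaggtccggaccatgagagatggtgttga
Kcnj4: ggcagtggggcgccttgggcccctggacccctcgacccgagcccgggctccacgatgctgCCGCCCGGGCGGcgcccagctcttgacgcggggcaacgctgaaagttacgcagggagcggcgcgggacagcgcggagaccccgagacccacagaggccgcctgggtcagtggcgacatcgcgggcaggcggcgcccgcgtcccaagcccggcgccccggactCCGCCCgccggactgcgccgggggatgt
Kcnma1: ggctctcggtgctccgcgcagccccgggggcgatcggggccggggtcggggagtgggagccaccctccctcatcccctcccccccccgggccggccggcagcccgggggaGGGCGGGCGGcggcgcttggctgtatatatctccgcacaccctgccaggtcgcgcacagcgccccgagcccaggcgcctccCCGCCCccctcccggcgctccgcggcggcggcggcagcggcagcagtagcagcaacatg
Cacna2d1: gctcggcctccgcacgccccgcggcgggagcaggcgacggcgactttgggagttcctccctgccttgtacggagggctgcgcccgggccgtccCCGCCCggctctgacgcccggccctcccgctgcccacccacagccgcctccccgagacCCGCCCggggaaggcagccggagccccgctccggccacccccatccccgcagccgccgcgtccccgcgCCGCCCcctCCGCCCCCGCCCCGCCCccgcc
The GC box occurred 0, 1 and 0 times before Kcnj12, Kcne1l and Cacng2, and 3, 3 and 6 times before Kcnj4, Kcnma1 and Cacna2d1, and TATAAA occurred in none of the 6. GC content was 56%, 68% and 62% in the first trio and 77.2%, 79.2% and 82.4% in the second. With so few promoters this is a description. Highest and lowest here refer to WT means, and for Cacng2 the cerebellar and cortical arrays overlapped. Over all 60 channel promoters, 46.7% held a GC box and 1.67% held TATAAA, against 32.7% and 12.4% of the 32851 promoters in the table, whose median GC content was 52.4% against 59.6% for the channels.

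The regional pattern was read again in the KO mice, which are other animals read on arrays of the same design. Both genotypes were tested in the same fit, with a residual spread shared between them, so their calls are not independent. The F test passed for 34 of 46 channel probe sets, against 48.6% of all. In KO mice 11 were higher in cerebellum than in hippocampus (18.7% of all) and 18 lower (21.3%), 8 were higher in cerebellum than in cortex (18.8%) and 23 lower (20.2%), and 6 were higher in hippocampus than in cortex (6.90%) and 11 lower (7.53%). Of the 21 called between cerebellum and hippocampus in WT, 20 were called in the same direction in KO (95.2%, against 78.1% of all probe sets called in WT). The shares were 25 of 30 for cerebellum against cortex (83.3%, against 64.8%) and 12 of 14 for hippocampus against cortex (85.7%, against 52.2%). Among KO counts, the 23 fell to 14 without mouse 3363. Leaving out mouse 3363, 3389 or 3403 turned the 6 into 3, 2 or 3, and the 11 into 7 each time.

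KO minus WT was small for most channels in each region. In hippocampus the median log2 difference of the 46 was -0.02 (0.02 over all probe sets), and 40 lay within 0.5 of 0 (91.7% of all). The medians were 0.00 in cerebellum and 0.01 in cortex (0.03 and 0.00 over all), where 43 and 42 lay within 0.5 (91.1% of all in both). A pair of channel probe sets fell in KO hippocampus, Cacna1g and Kcne1l, against 0.0835% of all, and 0 rose (0.0358% of all). In cerebellum and in cortex limma called 0 channels in either direction. The shares of all probe sets there were 0.00% higher and 0.0358% lower in cerebellum, and 0.0597% higher and 0.227% lower in cortex. At an unadjusted p under 0.05, cerebellum had 2 higher (6.32% of all) and 2 lower (5.76%), and cortex 0 higher (5.08%) and 1 lower (5.17%).

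**Figure D2:**
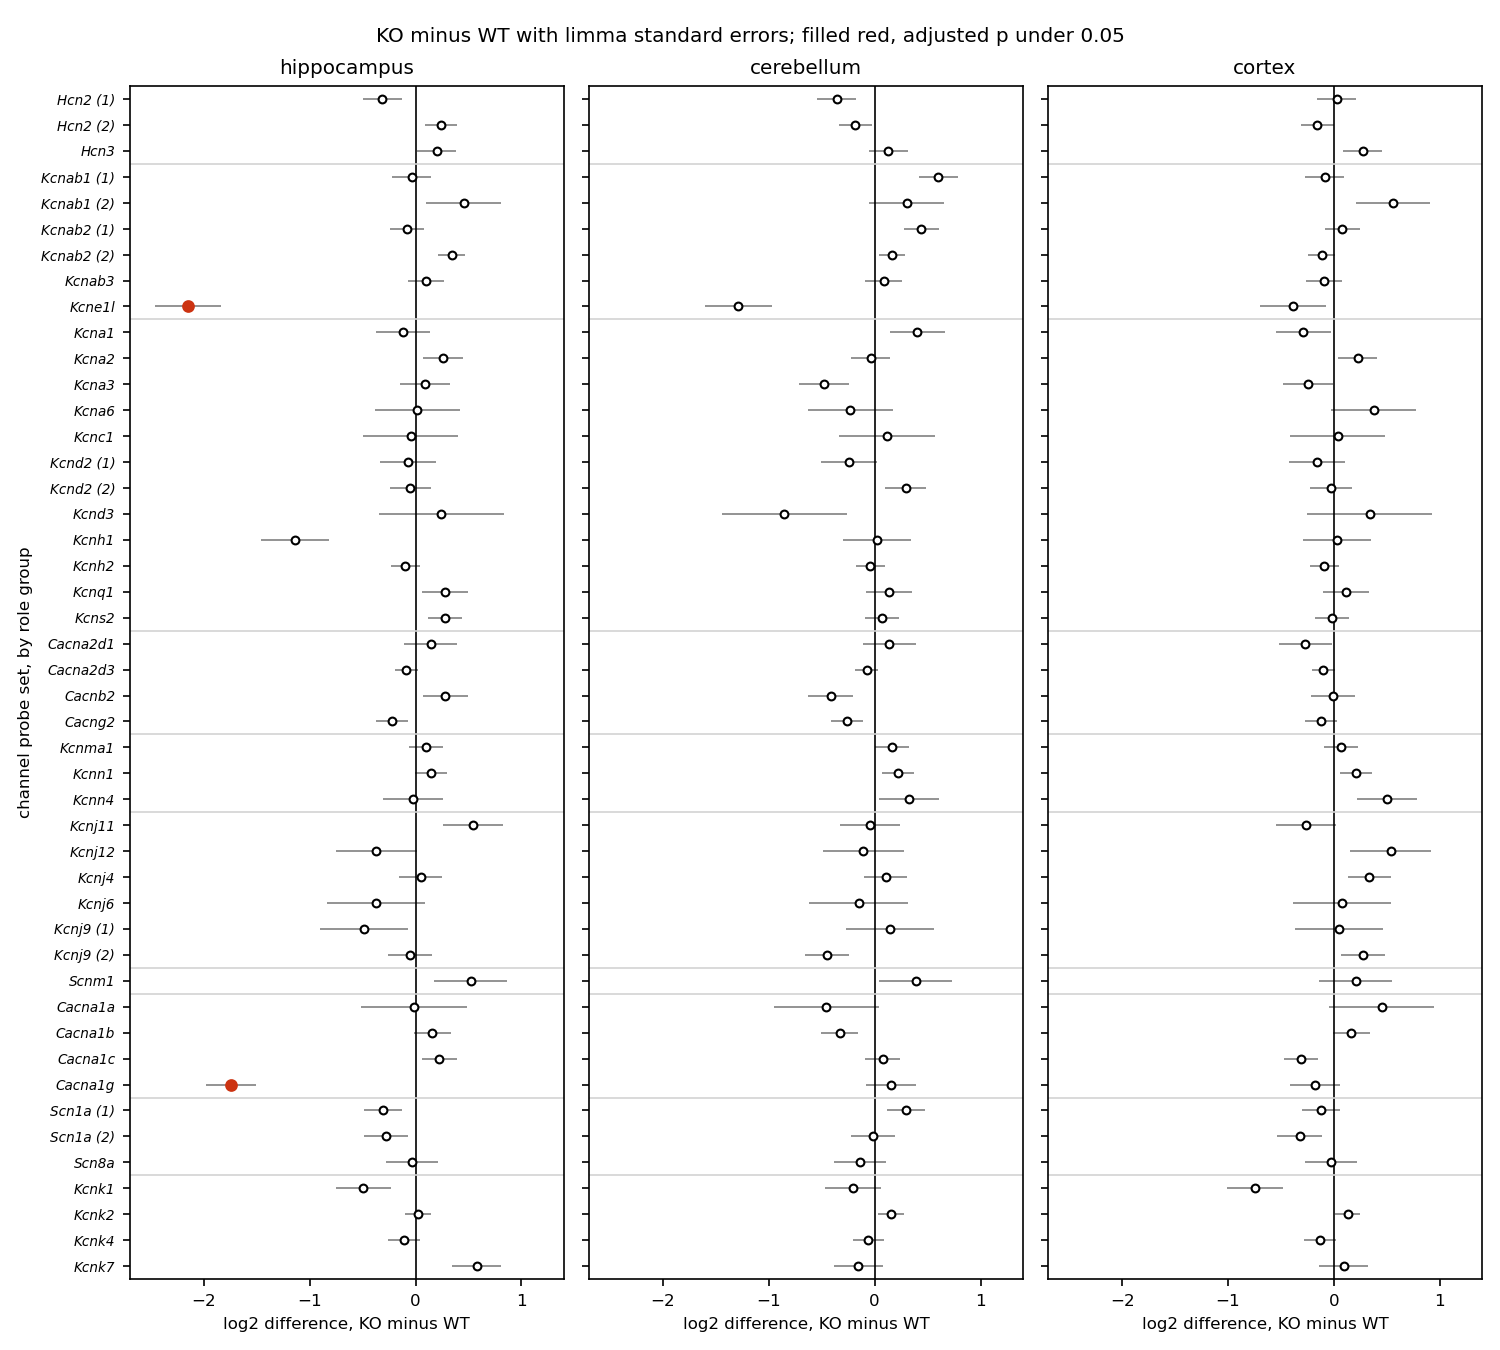
Log2 difference, KO minus WT, of the 46 kept channel probe sets (rows, by role group, with (1) and (2) the 2 probe sets of a gene) in hippocampus, cerebellum and cortex; points are limma estimates from 3 against 3 arrays and bars are standard errors. The 2 filled points, Cacna1g and Kcne1l in hippocampus, are those with an adjusted p under 0.05.

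Cacna1g read 9.84, 13.4 and 15.1 in the hippocampus of KO mice 3363, 3389 and 3403, against 57.2, 38.8 and 33.2 in WT. The highest KO array was below the lowest WT array. The log2 difference was -1.74 ± 0.24, 3.34-fold lower in KO (adjusted p = 0.00165). The KO signals lay just above the floor, and with 16 added to every signal in place of the floor the log2 difference was -1.02 (adjusted p = 0.0254). It lost its call when only the 6 hippocampal arrays were fitted (adjusted p = 0.235). In cerebellum Cacna1g read 386, 351 and 365 in KO against 432, 284 and 292 in WT, and in cortex 61.1, 51.6 and 62.4 against 50.2, 88.4 and 64.1. Both pairs of groups overlapped, with log2 differences of 0.16 ± 0.24 and -0.18 ± 0.24 (adjusted p = 0.840 and 0.861). Hippocampus minus cortex was -2.21 ± 0.24 for Cacna1g in KO mice (adjusted p = 3.99e-05), and in WT mice the same difference was -0.65 ± 0.24 (adjusted p = 0.0920). The interaction of genotype and region, which tests whether KO minus WT differs between regions, did not pass for Cacna1g (adjusted p = 0.183).

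Kcne1l was under the floor on all 3 KO hippocampal arrays (5.82, 8.40 and 6.51), against 44.3, 44.5 and 37.7 in WT. Set against the floor, it was at least 4.44-fold lower in KO hippocampus, with a fitted log2 difference of -2.15 ± 0.32 (adjusted p = 0.00349). With 16 added in place of the floor the log2 difference was -1.34 (adjusted p = 0.0107). Without WT mouse 3405 the adjusted p was 0.0540, and the 60th percentile filter removes this probe set. In cerebellum Kcne1l read 39.8, 47.9 and 60.8 in KO and 89.0, 140 and 136 in WT. These groups did not overlap, but the difference of -1.29 ± 0.32 did not pass (adjusted p = 0.132, and 0.04999, just past the threshold, without mouse 3405). In cortex it was under the floor on all KO arrays and on 2 of 3 WT arrays. Kcne1l had the lowest p of the channels in the mean of the 3 regions, at -1.27 ± 0.22 (adjusted p = 0.0602), and passed there with median scaling (-1.30, adjusted p = 0.0439). Its interaction did not pass (adjusted p = 0.277).

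**Figure D3:**
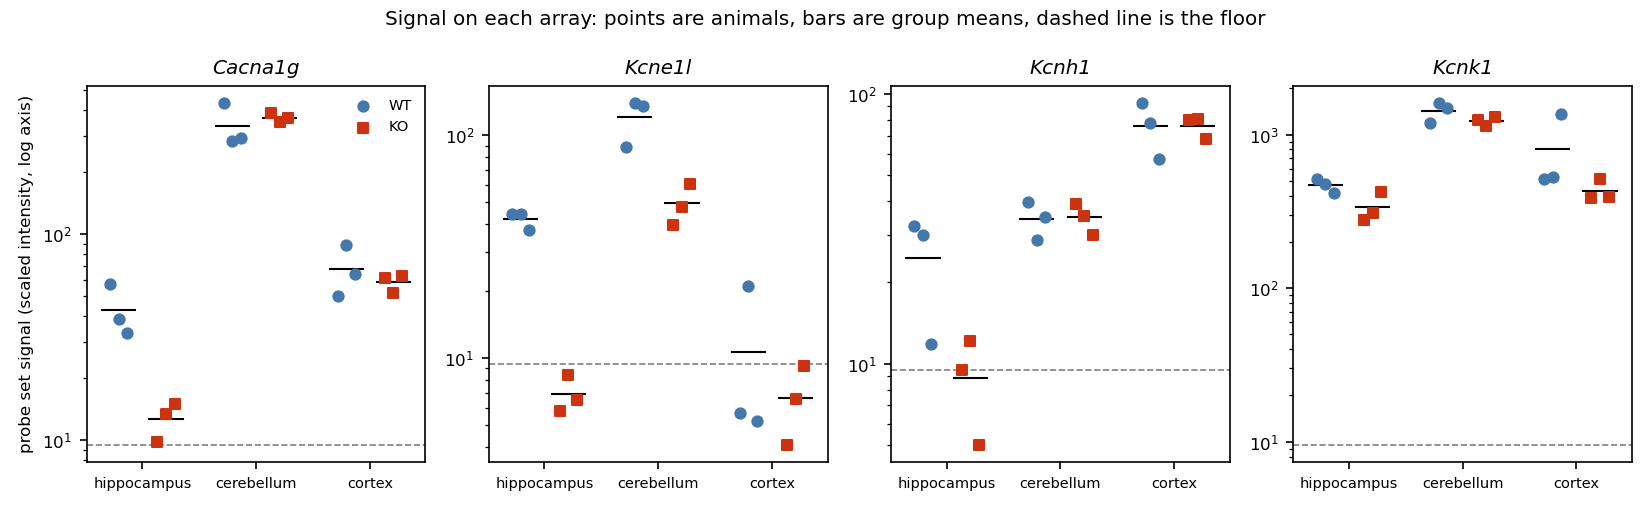
Signal of Cacna1g, Kcne1l, Kcnh1 and Kcnk1 (log axis, scaled intensity) on each of 18 arrays by region; blue circles are WT mice, red squares KO mice, black bars group means of 3 and the dashed line the floor of 9.46. In hippocampus the KO squares of Cacna1g and Kcne1l lie wholly below the WT circles, while a single WT circle at 1368 stands apart for Kcnk1 in cortex.

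The other hippocampal genes of lowest p did not pass. Kcnh1 read 9.46, 12.1 and 4.98 in KO and 32.4, 30.0 and 11.9 in WT, where mouse 3396 lay among the KO values. Its log2 difference was -1.14 ± 0.32 (adjusted p = 0.264), and without mouse 3396 it was -1.61 (adjusted p = 0.0101), which would make 3 lower channels. In cerebellum and cortex the difference of Kcnh1 was 0.02 and 0.03, and its interaction had an adjusted p of 0.379. On the higher side, Kcnab2 (162182_f_at) gave 0.34 ± 0.13, Kcnk7 0.58 ± 0.23 and Kcnj11 0.55 ± 0.28 (adjusted p = 0.470, 0.537 and 0.633). Kcnj11 read 105, 106 and 113 in KO against 90.0, 86.8 and 51.6 in WT, which did not overlap. In hippocampus 6 channel probe sets had all KO arrays above all WT arrays (10.4% of all) and 2 had them below (6.94% of all). At an unadjusted p under 0.05, 2 were higher (4.56% of all) and 3 lower (3.85%).

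Cell type markers were read on the same hippocampal arrays, and only the oligodendrocyte list held calls. Of 14 kept oligodendrocyte probe sets, 12 were below 0 with a median of -0.99, 4 fell, and their summed signal was 5732 to 7430 in KO and 8779 to 14130 in WT. Choroid plexus markers were below 0 for 4 of 4 in hippocampus, with summed signals of 1087 to 4062 in KO and 3110 to 3786 in WT. All 10 microglial probe sets were above 0, with a median of 0.27 and sums of 2173 to 2774 against 2011 to 2107, and 0 passed. Thalamic markers were below 0 for 4 of 5 (sums 961 to 1111 in KO, 881 to 1538 in WT), with the thalamic probe sets of Lhx9 and Gbx2 under the floor on every hippocampal array. Prkcd, a kinase high in thalamus (104531_at), read 552, 339 and 219 in WT and 272, 256 and 230 in KO hippocampus. It also read 354, 371 and 364 in WT cerebellum. The other kept probe set of Prkcd, 160698_s_at, read 551, 367.7 and 285.5 in WT and 377.5, 316.5 and 358.9 in KO hippocampus, which overlapped. Tcf7l2 (102241_f_at) of the thalamic list went the other way, at 161, 143 and 121 in WT and 204.5, 191 and 170 in KO. Zic1, a factor of cerebellar granule cells and of other brain regions, read 381, 347 and 140 in WT and 154, 137 and 169 in KO. Its list, the cerebellar neuron markers, was above 0 for 5 of 9 in hippocampus and below for 4, with a median of 0.12. Sums of that list overlapped, at 914 to 1008 in KO and 879 to 1149 in WT. Mouse 3396 was the lowest WT mouse in hippocampus for Prkcd, Zic1, Kcnh1, Cacna1g and Kcne1l. It was also lowest there for the oligodendrocyte gene Mog (292, against 519 and 411) and for the channels Kcnj11 and Kcnk1. For Cacnb2 it was the highest (326, against 221 and 243). The share of all probe sets with this mouse lowest was not counted. In mouse 3396 hippocampus Cacna1g read 33.2 and Kcne1l 37.7, and the KO hippocampal arrays read 9.84 to 15.1 and 5.82 to 8.40. Hippocampal field markers overlapped between genotypes, with sums of 2123 to 2252 in KO and 1980 to 2203 in WT. The part of any of these in the fall of Cacna1g and Kcne1l was not tested.

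The cerebellar genes of lowest p after Kcne1l did not pass either. Kcnab1 (102725_at) read 346, 271 and 283 in KO and 220, 230 and 150 in WT. Its groups did not overlap, and the log2 difference was 0.60 ± 0.18 (adjusted p = 0.194, with 0.419 for its interaction). Kcnab2 (102892_at) was at 0.44 ± 0.16, Kcnj9 (98332_at) at -0.45 ± 0.21, Kcna3, the KV1.3 channel, at -0.48 ± 0.24, and Cacnb2 at -0.42 ± 0.21 (adjusted p = 0.269, 0.397, 0.437 and 0.446). The Kcnab2 probe set read 150, 156 and 106 in KO and 85.5, 112 and 104 in WT, which overlapped. In cerebellum 1 channel probe set had all KO arrays above WT (7.53% of all) and 3 had them below (7.80%). Cerebellar neuron markers overlapped there, with sums of 16910 to 17440 in KO and 16630 to 17950 in WT. Choroid plexus markers were above 0 for 4 of 4, with a median of 1.74 and sums of 2286 to 3040 against 1126 to 3257, and their part in these values was not tested.

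In cortex Kcnk1 (102335_at) had the lowest p, at 388, 514 and 392 in KO and 513, 528 and 1368 in WT. The high value was that of mouse 3396, whose cerebellar array read 1481. The log2 difference was -0.75 ± 0.26 (adjusted p = 0.297) and -0.28 without that mouse. Summed cerebellar neuron markers were 1012 to 1093 on the WT cortical arrays and 1033 to 1068 on the KO ones. Kcnk1 was also among the genes of lowest p in the mean of the regions, at -0.48 ± 0.11 (adjusted p = 0.232), with each KO mouse below each WT mouse. The remaining cortical genes were Cacna1c at -0.31 ± 0.16, Kcnn4, an intermediate-conductance channel, at 0.50 ± 0.28, Kcnj4 at 0.33 ± 0.20, Kcnab1 (162087_f_at) at 0.56 ± 0.35 and Scn1a (94201_at) at -0.32 ± 0.21. Their adjusted p lay between 0.537 and 0.638. Cortex had 1 channel probe set with KO wholly above WT (7.05% of all) and 1 wholly below (7.18%). In the same cortical arrays 11 of 14 oligodendrocyte probe sets were below 0 with a median of -1.21, 9 fell, and their sums were 4793 to 6176 in KO and 9645 to 12320 in WT. Astrocyte markers were lower there as sums (2918 to 3189 against 3606 to 3861) and in cerebellum (5377 to 6543 against 6665 to 7155), with 0 of 8 probe sets called in either. By probe set, 5 of 8 were below 0 and 3 above in each, with medians of -0.12 in cortex and -0.14 in cerebellum. Striatal markers in cortex summed to 635 to 696 in KO and 660 to 1406 in WT, and endothelial ones to 537 to 633 and 534 to 727. Microglial markers in cortex were above 0 for 9 of 10, with a median of 0.22 and sums of 1918 to 2526 in KO and 1870 to 2029 in WT, and 0 passed. The part of these markers in the channel values was not tested.

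Averaged over each mouse's 3 regions, the 46 channels had a median log2 difference of -0.0018 (0.02 over all), and 44 lay within 0.5 of 0 (97.8% of all). Limma called 0 of them, against 0.0358% of all higher and 0.143% lower. At an unadjusted p under 0.05, 1 was higher (5.27% of all) and 4 lower (4.87%). All KO mice were above all WT mice for 4 (8.59%) and below for 5 (7.02%). The 4 lower at an unadjusted p under 0.05 were Kcne1l, Cacna1g (-0.59 ± 0.12, adjusted p = 0.155), Kcnk1 and Hcn2 (94194_s_at, -0.22 ± 0.09, adjusted p = 0.435). The other probe set of Hcn2 gave -0.03 ± 0.10. The interaction was called for 0 channels, against 0.0477% of all.

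Genes that anchor, traffic or modulate these channels were read from a separate list of 38, of which 21 were on the array and 20, with 24 probe sets, were kept. Limma called 0 of the 24 between KO and WT in any region or in the mean of the regions, and the median log2 differences were -0.05, -0.01 and -0.01 in hippocampus, cerebellum and cortex. Fgf11, an intracellular factor that binds sodium channels, had the lowest p in cerebellum, at 127, 194 and 146 in KO against 194, 249 and 246 in WT for 95377_at. Its arrays barely separated, and -0.58 ± 0.16 did not pass (adjusted p = 0.156). Its other probe set, 102574_at, had the lowest p in hippocampus, at 0.45 ± 0.22 (adjusted p = 0.597). In cortex it was Ppp3ca, the catalytic subunit of calcineurin, at -0.33 ± 0.15 (adjusted p = 0.474). Nedd4l, the ubiquitin ligase that removes sodium channels from the membrane, gave 0.38 ± 0.11 in the mean of the regions for 103906_f_at (adjusted p = 0.319). Between WT regions 12 of 24 partner probe sets passed, a share near the 46.5% of all, and those of lowest p were the syntaxin Stx1a and Fgf13 (adjusted p = 9.94e-10 and 1.81e-09).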

How the data were processed

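Replicates are separate mice per the labels. Region and genotype were taken from the sample titles, since the source label names hippocampus throughout. The authors deposited linear intensity, 1 value per probe set and array, with array means (2% trimmed) already made equal; the software and build are not given in the sources used here, and scaling hides any change in total RNA.

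After removal of 66 controls, signals below the 20th percentile were set to it before log2, which understates folds near this floor. To be kept (8382), a probe set had to exceed the 40th percentile of an array on 3 or more arrays. limma 3.58.1 (R 4.3.3) with an intensity trend fitted 6 group means to 18 arrays for KO minus WT (12 residual degrees of freedom), per-mouse means for the mean of the regions (4), and the mouse as a fixed block for the interaction and regions (8). Tests were two-sided, with Benjamini-Hochberg adjustment over all 8382 and a threshold of 0.05, and were checked on simulated data. An exact test of 3 against 3 cannot give a p under 0.1. The F test covers all 3 regions and pairwise contrasts are adjusted separately.

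Residuals of arrays of 1 mouse correlated with a median of 0.135 (-0.0836 to 0.195) and between mice with -0.0179, so fits with and without the mouse as a replicate block were compared. Alternatives were other normalizations (quantile, median scaling), an offset of 16 replacing the floor, a filter at the 60th percentile or none, no trend, each mouse left out, and a fit of 1 region's own 6 arrays. The members and gene lists were chosen with earlier results of these data known. Named genes are, per region, those past the threshold and then those of lowest p up to 6 genes; for the mean of the regions and the interaction those past the threshold or else the 4 of lowest p; for WT regions the 4 of lowest p in each role group; genes whose kept probe sets disagree on the highest WT region; and partners past the threshold or else the 3 of lowest p, of which the first is described. Prkcd, Tcf7l2 and Zic1 were chosen after their values were seen. Also computed were markers of astrocytes, endothelium and striatum, of which 0 were called in KO minus WT in any region. Of all probe sets, 10855 carry a single symbol in the annotation, 396 more than 1 and 1237 no symbol. All 76 channel probe sets matched RefSeq by gene ID.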

Additional observations from a re-analysis of the deposited data

How the results depend on the processing

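Of 303 counts of channel probe sets recomputed under the alternatives, 284 stayed within 1.5 times the value reported. No KO minus WT difference of a named gene changed sign, and sign was not checked for other results. The 2 channels lower in KO hippocampus became 1 with the 60th percentile filter, which leaves Kcne1l out, and 1 in the fit of that region's own 6 arrays. With median scaling 1 channel, Kcne1l, was lower in the mean of the regions in place of 0. Hippocampus against cortex gave 5 lower without the filter in WT (8 reported) and 7 lower with the 60th percentile filter in KO (11 reported). For these the cause was not tested, apart from the probe set that the filter removes. With each mouse left out in turn, channels lower in KO ranged from 1 to 3 in hippocampus and from 0 to 1 in cerebellum. In WT, 6 to 11 were higher in cerebellum than in cortex, and 3 to 7 were higher and 3 to 8 lower in hippocampus than in cortex. In KO, 14 to 24 were lower in cerebellum than in cortex, and 2 to 6 were higher and 7 to 12 lower in hippocampus than in cortex.

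With the mouse as a replicate block, 2 channels were lower in KO hippocampus and 0 in cerebellum and cortex, as without it. Without the replicate block, 31 channels differed between WT regions and 33 between KO regions. Of 341 alternative values for named genes in KO minus WT and the interaction, 336 kept their side of the threshold and, for KO minus WT, their direction. Of 577 for the WT region test, which has no direction, 548 kept their side of the threshold. Signals near the floor, such as those of Cacna1g, Kcne1l and Kcnh1 in hippocampus, limit how far their folds can be read, and 3 mice a group limit the precision of all of them.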
